A study of Mus musculus with 8 samples.

Results

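The genes described here are 10 genes of the MHC class I pathway in mouse bone marrow B cells: the heavy chains H2-K1, H2-D1, H2-Q4, H2-Q6, H2-Q7 and H2-Q10, the light chain B2m, the peptide transporter subunit Tap1, the loading factor Tapbp and the transactivator Nlrc5. They were chosen by name, by matching the symbol of each to the Ensembl gene identifiers of the count table, and each matched 1 of its 54532 rows. The cells came from the marrow of mice that had a sham operation (Sham, 3 libraries) or removal of the ovaries (OVX, 3 libraries), a surgical model of estrogen deficiency, and were sorted with magnetic beads before total RNA was sequenced. The labels of these 6 libraries name no genetic change and give no strain, age or time after surgery, and whether a library holds 1 mouse or a pool was not given in the sources used here. The comparison asks whether loss of ovarian function goes with a different level of class I RNA in marrow B cells.

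MHC class I molecules show peptides made inside the cell to CD8 T cells, and nearly every nucleated cell carries them. A heavy chain pairs with beta-2-microglobulin (B2m) in the endoplasmic reticulum, TAP brings in peptides that the proteasome has cut in the cytosol, and tapasin (Tapbp) holds the empty molecule next to TAP until a fitting peptide binds. Transcription of many of these genes is raised by interferon and, in lymphocytes, depends in part on NLRC5. NLRC5 is a regulator that acts through proteins sitting on a conserved promoter module.

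The heavy chain promoters are shown because members share sequence elements there that the choice of genes by name did not use. Promoter sequences from RefSeq (GRCm38.p6, 250 bases before to 50 after the annotated start, 300 bases in all) were found for 9 of the 10 members, and none was found for Nlrc5. A search was made on both strands for the letters TGAC followed, after 19 to 21 bases, by ATTGG, the spacing at which a short cyclic AMP response element and a reversed CCAAT box sit in class I promoters. It was written after these promoters had been looked at. The matches are given below 5′ to 3′ with both elements in capitals. For H2-Q10 the aligned stretch is given, which has no match.
H2-K1 (chr17:34000359-34000388, minus strand): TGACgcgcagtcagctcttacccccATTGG
H2-D1 (chr17:35262993-35263022, plus strand): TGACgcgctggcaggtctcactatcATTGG
H2-Q4 (chr17:35379513-35379542, plus strand): TGACttactggcagttctcacccccATTGG
H2-Q6 (chr17:35424747-35424775, plus strand): TGACctgtaacagttctcacccctATTGG
H2-Q7 (chr17:35439091-35439119, plus strand): TGACgtgtaacagttctcacccctATTGG
H2-Q10 (chr17:35469989-35470015, plus strand): tgaggctatcaggtctcacccccatga
B2m (chr2:122147609-122147638, plus strand): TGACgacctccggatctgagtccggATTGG
The pair occurred in 5 of the 6 heavy chain promoters and in B2m, and in 188 of 32851 mouse promoters of the same length, which is 0.572%. It was not found in the windows of H2-Q10, Tap1 and Tapbp, which says only that these letters were not there. The H2-K1 match lies inside the annotated span of the gene, because the table holds 2 starts for H2-K1 and the first was used.

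A longer stretch of 130 bases shows where H2-Q10 and H2-D1 part. Capitals mark GGGGATTCC, a kappa B-like element, TTTCNNTTC, an interferon response-like element, and the spaced pair.
H2-D1 (chr17:35262909-35263038, plus strand): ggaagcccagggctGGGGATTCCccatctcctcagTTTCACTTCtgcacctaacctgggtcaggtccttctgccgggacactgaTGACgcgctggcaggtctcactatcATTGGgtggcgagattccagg
H2-Q10 (chr17:35469899-35470028, plus strand): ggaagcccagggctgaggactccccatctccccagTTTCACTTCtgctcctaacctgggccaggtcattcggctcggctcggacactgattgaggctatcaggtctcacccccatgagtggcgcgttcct
All 6 heavy chain promoters held the interferon response-like letters, as did 7.52% of all promoters. The kappa B-like letters stood in H2-K1, H2-D1, H2-Q6 and H2-Q7 and in 0.25% of all promoters. They were not found in H2-Q4, H2-Q10, B2m, Tap1 or Tapbp, which says only that these exact letters were not there. H2-Q4 held the near match ggggatttcc ahead of its interferon response-like letters. The interferon response-like letters and the spaced pair stood together in 20 of 32851 promoters, or 0.0609%, and 5 of those promoters were heavy chain members. Identity over these aligned stretches ran from 75% between H2-Q4 and H2-Q10 to 96.2% between H2-Q6 and H2-Q7. None of these matches was tested for binding.

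**Figure D1:**
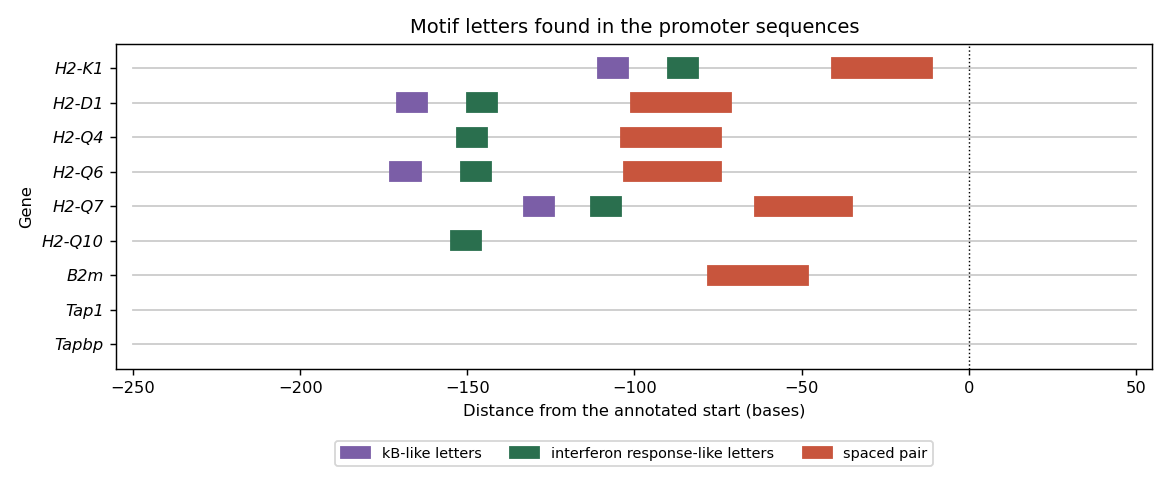
Positions of the searched letters in the promoters of 9 members, in bases from the annotated start (x axis), with 1 line per gene and 1 colour per element. The spaced pair is drawn for H2-K1, H2-D1, H2-Q4, H2-Q6, H2-Q7 and B2m, and none is drawn for H2-Q10, Tap1 or Tapbp.

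The 6 libraries held from 23838775 to 33136701 counts, and 15305 genes had enough counts to be tested. The 10 members together took 0.658% to 0.760% of a library's counts. B cell markers were present throughout, with 12 of 12 tested and 1.10% to 1.26% of counts. Neutrophil markers, with 14 of 14 tested, ran from 0.110% to 0.937%, with Sham replicate 3 highest, and all 14 had a lower mean in OVX. Macrophage and monocyte markers took 0.0646% to 0.229% (12 of 12 tested), erythroid markers 0.0140% to 0.0473% (9 of 10 in the table and tested), plasmacytoid dendritic cell markers 0.104% to 0.129% (9 of 9 tested), and T and NK cell markers at most 0.00522% (12 of 12 tested). Among the B cell stages, mature B cell markers (11 of 11 tested) were highest in Sham replicate 2 at 0.424% against 0.219% to 0.267% elsewhere, and pro-B and pre-B markers (11 of 11 tested) lowest there at 0.251% against 0.315% to 0.466%. None of these marker lists had all its OVX libraries on one side of all its Sham libraries. In such bulk RNA, fewer cells of a type and less RNA per cell cannot be told apart.

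All 10 members passed the filter on low counts and none was called between OVX and Sham. A call needed an adjusted p-value under 0.05 (quasi-likelihood test of edgeR, Benjamini-Hochberg over all genes tested) and a fold change of at least 1.6. Of all genes tested, 0% were called. At an unadjusted p-value under 0.05, 1 member (H2-Q10) was lower in OVX and 0 were higher, where 2.28% of all genes tested were lower and 1.47% higher. DESeq2 also called 0 members. The groups failed to overlap for 0 members, with OVX above or with OVX below, where 4.33% and 4.12% of all genes tested did so. By direction, 4 members had a higher fitted level in OVX (H2-K1, H2-Q4, B2m and H2-Q6, the last of which was lower when scaled by library size or upper quartile) and 6 a lower one. The median log2 fold change of the members was -0.04, beside -0.0081 for all genes tested. Of those genes, 7371 were higher and 7934 lower. With 3 libraries per group the p-values measure the spread between these libraries only, and an exact permutation test cannot go below p = 0.1. Levels below are in CPM, counts scaled to a common library total with edgeR's TMM factors. They are not divided by transcript length, so levels of different genes are not compared.

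**Figure D2:**
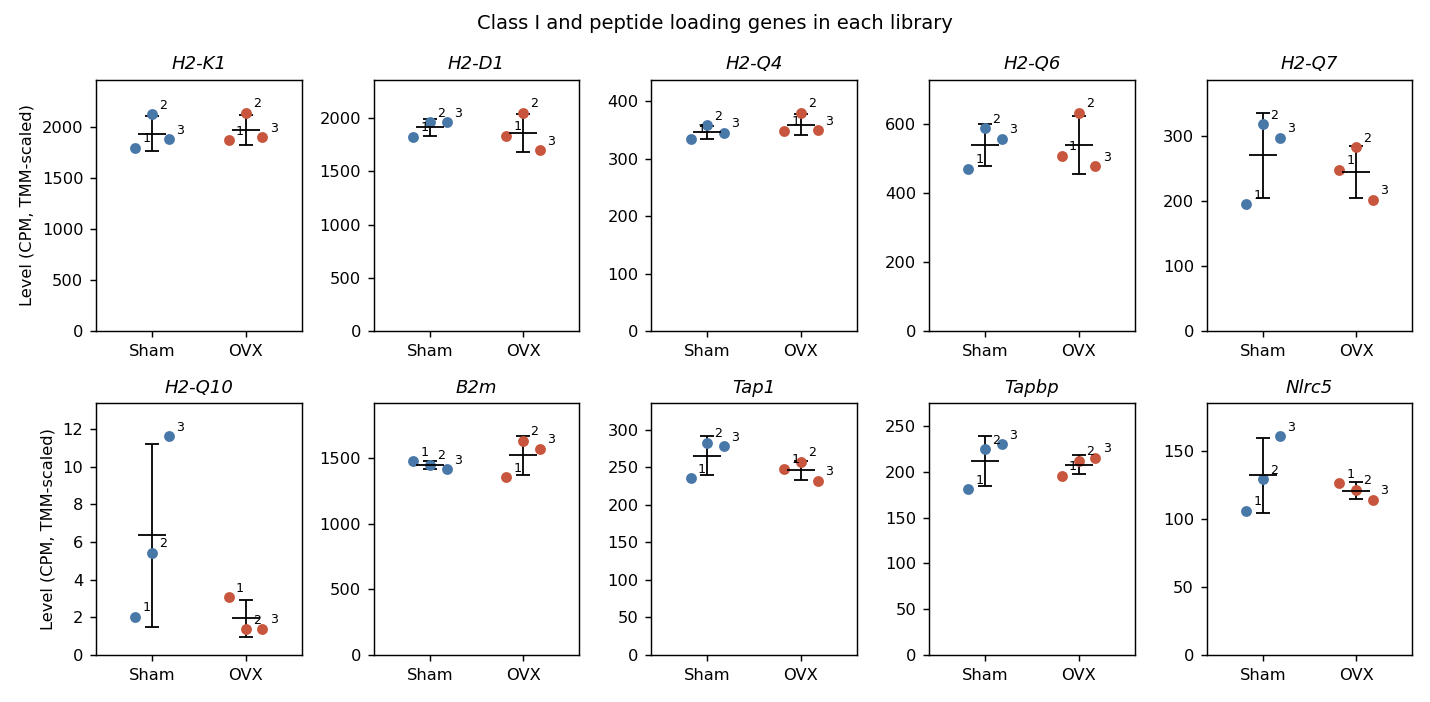
Level of each member in CPM (y axis, linear from 0), 1 panel per gene, with 1 numbered point per library, Sham beside OVX, and the group mean with its SD as a bar (n = 3 per group). Sham and OVX overlap for all 10 members, and the points of H2-Q10 spread from 1.38 to 11.6 CPM.

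The classical heavy chains H2-K1 and H2-D1, which present peptides to CD8 T cells, were nearly level between the groups. H2-K1 (ENSMUSG00000061232, GRCm38.p6 chromosome 17, 33996012 to 34000619) was counted 42531, 60282 and 46749 times in Sham replicates 1 to 3 and 45899, 60624 and 62791 times in OVX replicates 1 to 3. In CPM this was 1795, 2123 and 1881 in Sham and 1869, 2140 and 1901 in OVX. Replicate 2 was the highest of each group, and the ranges overlapped almost entirely. OVX averaged 1970 ± 148 CPM and Sham averaged 1933 ± 170 CPM (± SD, n = 3 each). The log2 fold change was 0.03 with a standard error of 0.10 and a 95% interval from -0.21 to 0.26 (adjusted p = 0.950, edgeR).

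H2-D1 (ENSMUSG00000073411, chromosome 17, 35263094 to 35267497) had 43199, 55712 and 48679 counts in Sham and 44985, 58125 and 56059 in OVX. Its levels were 1824, 1962 and 1958 CPM in Sham and 1832, 2051 and 1697 CPM in OVX. OVX thus held both the highest and the lowest library. OVX averaged 1860 ± 179 CPM and Sham averaged 1915 ± 79.1 CPM (± SD, n = 3 each). The fitted log2 difference was -0.04 (standard error 0.0958, 95% interval -0.27 to 0.18, adjusted p = 0.914, edgeR).

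The genes of the Q region encode nonclassical class I chains, and H2-Q7 and H2-Q6 belong to the Qa-2 group. H2-Q4 (ENSMUSG00000035929, chromosome 17, 35379617 to 35384674) had the narrowest spread of the heavy chains. It stood at 335, 358 and 345 CPM in Sham and 348, 380 and 349 in OVX. Its log2 fold change was 0.05 (standard error 0.0695, 95% interval -0.11 to 0.22, adjusted p = 0.854, edgeR), the highest of the heavy chains, and the groups overlapped.

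H2-Q6 (ENSMUSG00000073409, chromosome 17, 35424850 to 35430055) stood at 471, 589 and 559 CPM in Sham and 509, 635 and 478 in OVX. OVX averaged 540 ± 82.9 CPM and Sham averaged 540 ± 61.0 CPM (± SD, n = 3 each), so the groups had the same centre while libraries within each differed. The log2 fold change was 0.0017 (standard error 0.132, 95% interval -0.31 to 0.31, adjusted p = 0.997, edgeR).

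H2-Q7 (ENSMUSG00000060550, chromosome 17, 35439140 to 35443773) was the most variable heavy chain after H2-Q10. Its counts were 4618, 9027 and 7379 in Sham and 6086, 7996 and 6674 in OVX, or 195, 318 and 297 CPM in Sham and 248, 282 and 202 CPM in OVX. Sham held the lowest library and the highest pair, with OVX between. OVX averaged 244 ± 40.2 CPM and Sham averaged 270 ± 65.8 CPM (± SD, n = 3 each). The fitted log2 difference was -0.15 (standard error 0.198, 95% interval -0.61 to 0.32, adjusted p = 0.858, edgeR). The class I heavy chains are close in sequence, and how reads that match several of them were assigned was not given in the sources used here, so the split of counts among H2-K1, H2-D1 and the Q genes is uncertain.

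H2-Q10 (ENSMUSG00000067235, chromosome 17, 35470089 to 35474563), best known as a class I molecule that the liver secretes, was the exception among the members. It was counted 48, 154 and 289 times in Sham and 75, 39 and 46 times in OVX. In CPM these were 2.03, 5.42 and 11.6 in Sham and 3.05, 1.38 and 1.39 in OVX. Sham replicates 2 and 3 were above every OVX library, and Sham replicate 1 was below OVX replicate 1, so the groups overlapped. OVX averaged 1.94 ± 0.964 CPM and Sham averaged 6.36 ± 4.87 CPM (± SD, n = 3 each). The log2 fold change was -1.72 (standard error 0.633, 95% interval -3.21 to -0.23, adjusted p = 0.811, edgeR), and the exact permutation test gave p = 0.2 (two-sided). Without Sham replicate 3 the log2 fold change was -0.96, and without OVX replicate 1 it was -2.19. The part of reads shared with the other heavy chains was not tested.

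The highest library and the lowest pair for H2-Q10 were also those of several markers of other marrow cells. The summed neutrophil markers were 0.251%, 0.344% and 0.937% of counts in Sham and 0.405%, 0.110% and 0.118% in OVX, so that Sham replicate 3 was highest and OVX replicates 2 and 3 lowest on both measures. Between these, Sham replicate 2 was above OVX replicate 1 for H2-Q10 and below it for the summed neutrophil markers. Across the 6 libraries and on the log2 scale, the level of H2-Q10 had a Pearson r of 0.938 with S100a9, a neutrophil calcium-binding protein, 0.955 with Mpo, the granule peroxidase, and 0.951 with Elane, neutrophil elastase. Siglech, a receptor of plasmacytoid dendritic cells, had an r of 0.958 and 63, 238 and 369 counts in Sham against 142, 26 and 37 in OVX. Klk1, another gene of the plasmacytoid list, had 8, 40 and 104 counts in Sham and 25, 4 and 4 in OVX (r = 0.976). The summed plasmacytoid list stayed within 0.104% to 0.129%, and 6 of its 9 genes had a lower mean in OVX. In CPM, Bst2 and Ccr9 of this list were also highest in Sham replicate 3. Cox6a2 was highest in Sham replicate 1 and Pacsin1 in Sham replicate 2. Tcf4, Irf8 and Ly6d had a higher fitted level in OVX, with log2 fold changes of 0.12, 0.02 and 0.07. The pattern was not limited to these lists. In CPM, Ly6c2 and Ccr2 of the monocyte list and Nkg7 of the T and NK list were also highest in Sham replicate 3 and lowest in OVX replicates 2 and 3. Other genes of those lists were not, such as C1qa and Cd4. The share of all genes with an r as high as these markers was not counted. Among 13166 tested genes with a mean of at least 1 CPM, the genes closest to H2-Q10 were Nadk (r = 0.995), Hk1 (r = 0.993), Gm34680 (r = 0.993) and Cst7 (r = 0.992). These genes were looked for after the values of H2-Q10 were seen, the 6 points share their libraries and groups, and the part of other cells in the result was not tested.

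**Figure D3:**
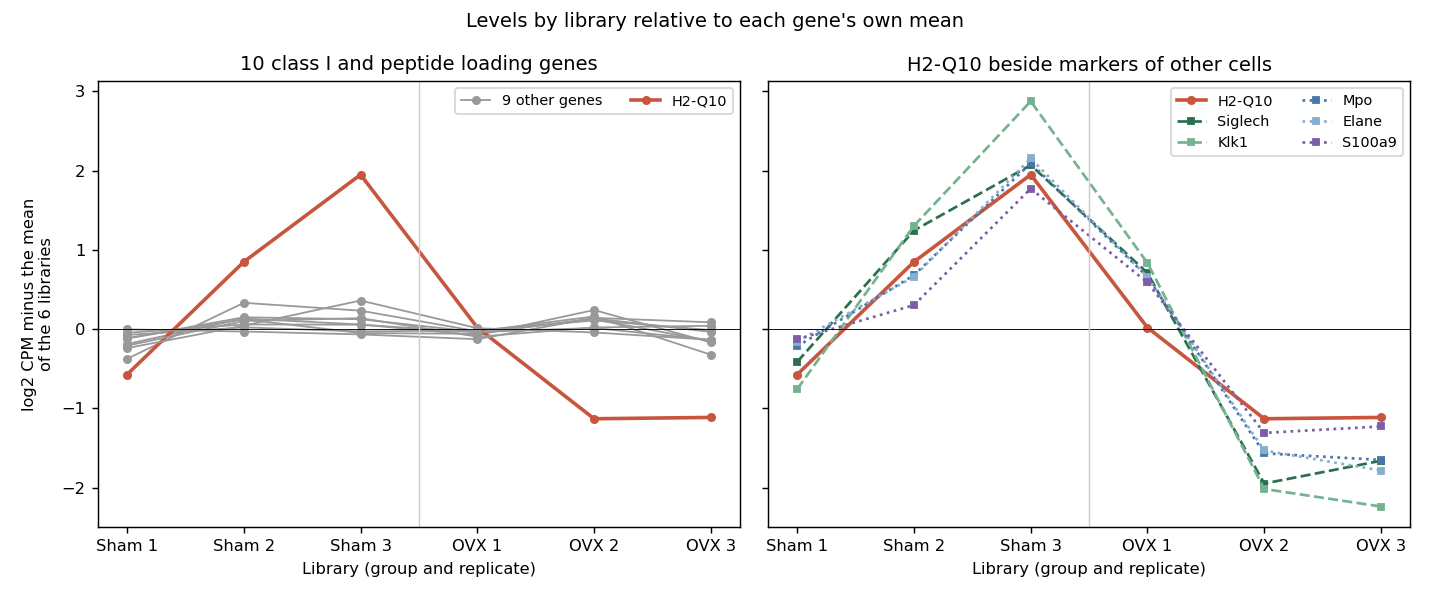
Log2 CPM of each gene minus its mean over the 6 libraries (y axis) by library (x axis). The left panel holds the 10 members with H2-Q10 in red, and the right panel sets H2-Q10 beside Siglech, Klk1, Mpo, Elane and S100a9. H2-Q10 is highest in Sham replicate 3 and lowest in OVX replicates 2 and 3, as these 5 genes are, while the other 9 members stay close to 0. The 5 genes were picked after the values of H2-Q10 were seen.

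B2m (ENSMUSG00000060802, chromosome 2, 122147687 to 122153082), the light chain that every class I heavy chain above shares, varied little among Sham libraries. It had 34972, 41135 and 35118 counts in Sham and 33265, 46262 and 51884 in OVX. The levels were 1476, 1449 and 1413 CPM in Sham and 1355, 1633 and 1571 CPM in OVX. OVX replicates 2 and 3 were above all Sham libraries and OVX replicate 1 was below them all. OVX averaged 1519 ± 146 CPM and Sham averaged 1446 ± 31.8 CPM (± SD, n = 3 each). The fitted log2 difference was 0.07 (standard error 0.0926, 95% interval -0.15 to 0.29, adjusted p = 0.854, edgeR). This was the highest log2 fold change of the 10 members.

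Tap1 (ENSMUSG00000037321, chromosome 17, 34187556 to 34197225) encodes one subunit of the peptide transporter. Its levels were 236, 283 and 278 CPM in Sham and 249, 258 and 232 in OVX, with Sham replicates 2 and 3 above every OVX library and Sham replicate 1 inside the OVX range. The log2 fold change was -0.11 (standard error 0.0902, 95% interval -0.32 to 0.10, adjusted p = 0.811, edgeR). Tapbp (ENSMUSG00000024308, chromosome 17, 33919478 to 33929290), which encodes tapasin, stood at 181, 225 and 230 CPM in Sham and 196, 212 and 215 in OVX. The OVX libraries all lay inside the Sham range, and the log2 fold change was -0.03 (standard error 0.103, 95% interval -0.27 to 0.21, adjusted p = 0.948, edgeR).

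Nlrc5 (ENSMUSG00000074151, chromosome 8, 94434335 to 94527272), the class I transactivator, varied more than the loading genes. It had 2519, 3675 and 4008 counts in Sham and 3108, 3456 and 3778 in OVX, or 106, 129 and 161 CPM in Sham and 127, 122 and 114 CPM in OVX. The OVX libraries lay within a narrow band inside the wider Sham range. OVX averaged 121 ± 6.17 CPM and Sham averaged 132 ± 27.6 CPM (± SD, n = 3 each). The fitted log2 difference was -0.13 (standard error 0.143, 95% interval -0.47 to 0.21, adjusted p = 0.834, edgeR).

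**Figure D4:**
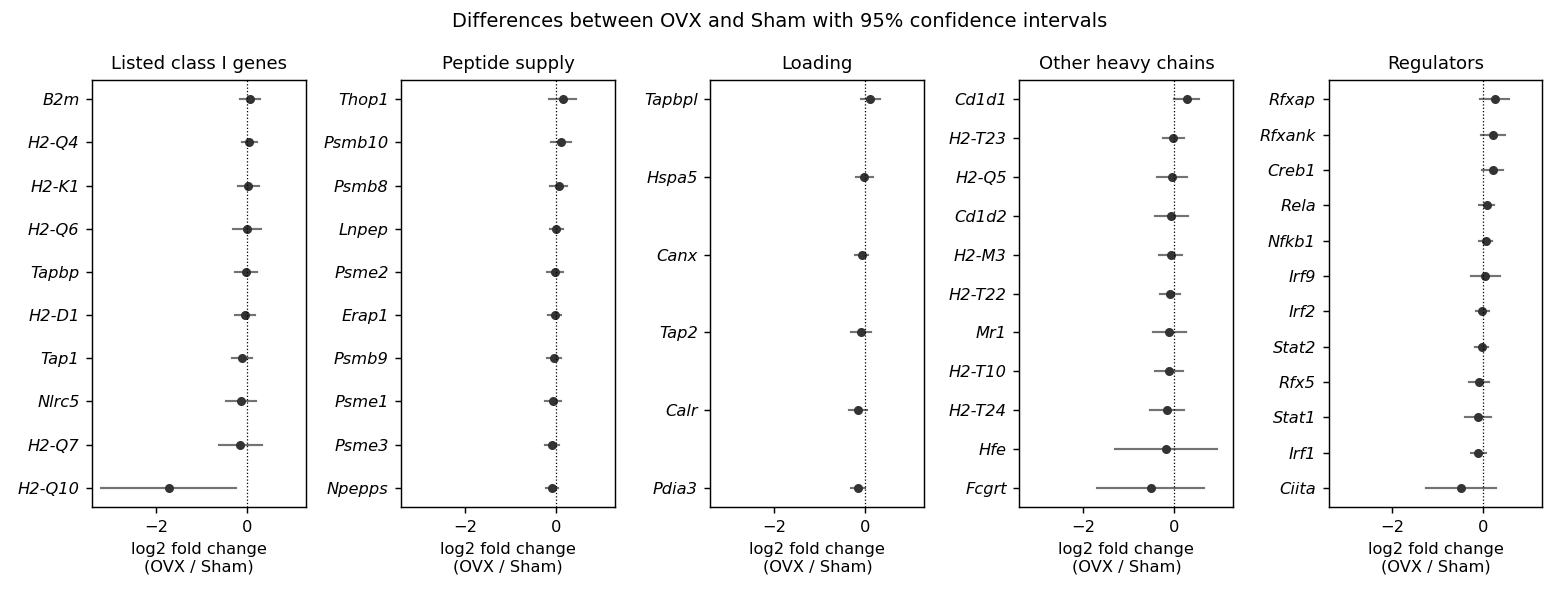
Log2 fold change of OVX against Sham (points, x axis) with 95% intervals from edgeR's fit (lines) on 3 libraries per group, for the 10 members and, in further panels, the tested genes of the peptide supply, loading, other heavy chain and regulator lists. The intervals of 9 members include 0, and that of H2-Q10 runs from -3.21 to -0.23.

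The spread over all 6 libraries, groups put aside, differed widely between the members. The ratio of the highest to the lowest library was 1.14 for H2-Q4, 1.19 for H2-K1, 1.21 for H2-D1 and for B2m, 1.22 for Tap1, 1.27 for Tapbp, 1.35 for H2-Q6, 1.52 for Nlrc5 and 1.63 for H2-Q7. The median of this ratio was 1.43 over all genes tested and 1.22 over the 2569 genes with a mean of at least 100 CPM. H2-Q4, H2-K1, H2-D1 and B2m were below the latter value. H2-Q10, of low level, reached 8.45.

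The ratio of a member to H2-K1 inside a library does not depend on how libraries are scaled. H2-D1 was counted at 1.02, 0.924 and 1.04 times H2-K1 in Sham and at 0.980, 0.959 and 0.893 times in OVX. B2m was counted at 0.822, 0.682 and 0.751 times H2-K1 in Sham and at 0.725, 0.763 and 0.826 times in OVX. In both cases the groups overlapped. Tap1 had ratios of 0.131, 0.133 and 0.148 in Sham and 0.133, 0.12 and 0.122 in OVX, a mean log2 difference of -0.13 (two-sided exact permutation test, p = 0.2). Over the 9 ratios tested, 0 separated OVX from Sham, and the adjusted p-values (Benjamini-Hochberg over the 9 exact tests) were 0.787 or 0.8.

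The members' profiles were also averaged over libraries. After each profile of log2 CPM was scaled to a mean of 0 and an SD of 1, the mean profile of the 10 members was 0.68 in OVX replicate 2, 0.67 in Sham replicate 2 and 0.56 in Sham replicate 3. It was -0.40 in OVX replicate 1, -0.57 in OVX replicate 3 and -0.94 in Sham replicate 1. High and low libraries thus occurred in each group.

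Each member was then set against the mean of the other 9. H2-Q6 and H2-Q7 were closest to the rest (Pearson r of 0.93 each over 6 libraries), followed by Tap1 (0.85), H2-D1 (0.80), H2-K1 (0.74) and Tapbp (0.73). Lower values were found for H2-Q4 (0.62), Nlrc5 (0.59), H2-Q10 (0.35) and B2m (-0.01). Among H2-K1, H2-D1, H2-Q4, H2-Q6 and H2-Q7, the pairwise r ran from 0.55 for H2-Q4 with H2-Q7 to 0.92 for H2-D1 with H2-Q6. H2-Q7 and Tap1 had an r of 0.96. H2-Q10 went with Nlrc5 (0.87) and Tap1 (0.79) and had an r of -0.06 with H2-K1 and -0.69 with B2m. These values are a description of 6 libraries that share their preparation and counting, and the part of reads shared between heavy chains was not tested.

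**Figure D5:**
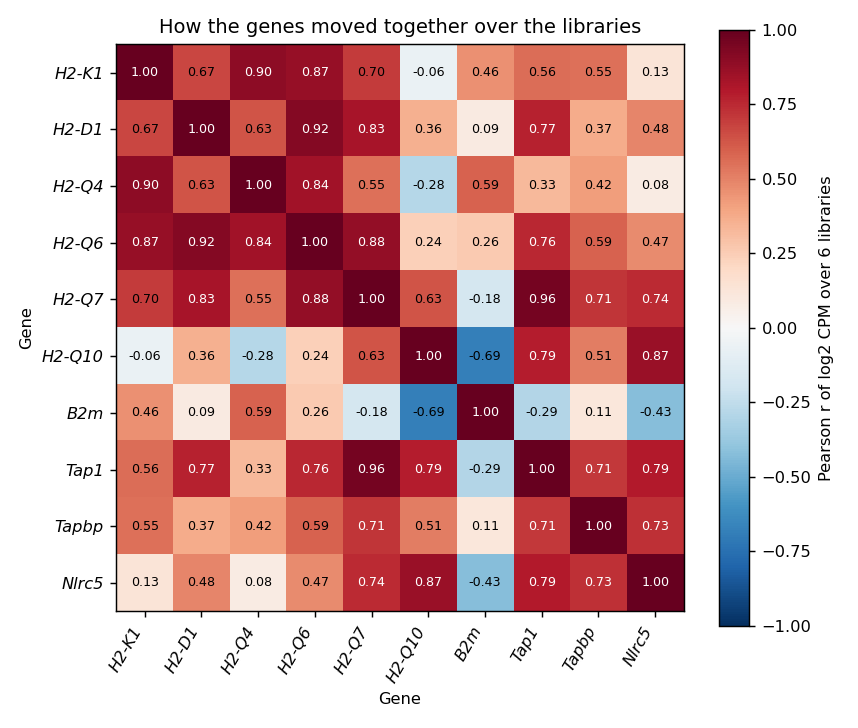
Pearson r over 6 libraries between the log2 CPM of each pair of members, written in each cell, with the colour running from -1 to 1. The pairs among H2-K1, H2-D1, H2-Q4, H2-Q6 and H2-Q7 lie between 0.55 and 0.92, and the lowest of all pairs is H2-Q10 with B2m at -0.69.

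Outside the 10 members, the genes whose levels followed the mean member profile most closely, among 9252 tested genes with a mean of at least 10 CPM, were Pik3c2b (r = 0.977 over 6 libraries), a class II phosphoinositide kinase, Brwd1 (0.974), a chromatin reader that acts in B cell development, and Tepsin (0.971). They were followed by Champ1 (0.969), Ttc38 (0.969), Acy1 (0.964), Ddhd2 (0.956), Ash2l (0.955), Slc35e2 (0.954) and Tlr9 (0.954), the receptor for unmethylated DNA. Pik3c2b stood at 132, 162 and 154 CPM in Sham and 143, 156 and 139 in OVX, and its groups overlapped. These genes are the highest of 9252 values of r, each over only 6 libraries, and a link to the members was not tested. The mean profile also includes H2-Q10 and B2m, which had an r of 0.35 and -0.01 with the mean of the other members.

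The steps around the members were described from lists of named genes. Of the genes that supply peptides (immunoproteasome subunits, its activators and trimming peptidases), 10 of 10 were tested, 4 were higher and 6 lower in OVX, and none passed an unadjusted p-value of 0.05. Their median was -0.02 on the log2 scale. Thop1, a cytosolic peptidase, had the highest value of 0.15. Npepps, an aminopeptidase, had the lowest at -0.09, and its OVX libraries all lay below the Sham libraries, with 90.1 ± 2.96 CPM against 95.9 ± 2.83 (± SD, n = 3 each), as for 4.12% of all genes tested.

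Of the other loading genes, 6 of 6 were tested, 1 was higher and 5 lower, with a median log2 fold change of -0.09. Pdia3, the disulfide isomerase ERp57 of the loading complex, stood at 298, 310 and 326 CPM in Sham and 269, 277 and 288 in OVX. All OVX libraries were below all Sham libraries, as for 4.12% of all genes tested. Its log2 fold change of -0.16 (standard error 0.0673) had an unadjusted p-value under 0.05, as had 2.28% of all genes tested in that direction, and did not pass the adjustment (adjusted p = 0.811, edgeR). Of these 6 genes, 0 had an unadjusted p-value under 0.05 when any library other than Sham replicate 1 was left out, and 3 had one without Sham replicate 1. Canx, the chaperone calnexin, was also without overlap, at 318, 312 and 325 CPM in Sham and 289, 311 and 304 in OVX, a log2 fold change of -0.08. Tapbpl, a tapasin relative that edits peptides, had the highest value of the list at 0.12.

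Of 20 other class I or class I-like heavy chains, 17 were in the table and 11 had enough counts to be tested. Of these 11, 1 was higher and 10 lower in OVX, and the median was -0.10 (log2). Without Sham replicate 2, 12 were tested, 8 were higher and the median was 0.03. Cd1d1, which presents lipids to natural killer T cells, was the one higher gene. It stood at 104, 84.4 and 85.6 CPM in Sham and 97.2, 113 and 122 in OVX, a log2 fold change of 0.27 with an unadjusted p-value under 0.05, as had 1.47% of all genes tested in that direction. It did not pass the adjustment (adjusted p = 0.811, edgeR), and the groups overlapped. Of the listed genes tested, 0 were higher at that level when replicate 2 or 3 of either group was left out. Fcgrt, the neonatal Fc receptor chain, had the lowest value at -0.52, with 550, 1900 and 510 counts in Sham and 503, 504 and 1293 in OVX. One library in each group was thus far above the rest. The macrophage genes C1qa and Vcam1 were high in the same libraries, with 6302 and 6176 counts of C1qa in Sham replicate 2 and OVX replicate 3 against 1366 to 2436 elsewhere, and 16758 and 16014 counts of Vcam1 against 3285 to 6589. C1qb, C1qc, Cd68, Adgre1, Csf1r and Mertk of the same list were also highest in Sham replicate 2 and OVX replicate 3. Lyz2, Ly6c2 and Ccr2 were instead highest in Sham replicate 3, and Marco was high in OVX replicate 3 alone. Ccr2 was counted 259, 651 and 1395 times in Sham and 520, 128 and 89 times in OVX. The summed macrophage and monocyte list was 0.118%, 0.229% and 0.175% of counts in Sham and 0.107%, 0.0646% and 0.170% in OVX. The part of macrophages and monocytes in the Fcgrt values was not tested. H2-M5 had 0 counts in all 6 libraries.

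Of the regulators, 12 of 12 were tested, 6 were higher and 6 lower, and none passed an unadjusted p-value of 0.05. Rfxap and Rfxank, subunits of the RFX complex that NLRC5 works through, had log2 fold changes of 0.25 and 0.21. Rfx5, another subunit of that complex, went the other way at -0.09. For Rfxank each OVX library exceeded each Sham library, with 30.8 ± 2.26 CPM against 26.6 ± 2.63 (± SD, n = 3 each), as for 4.33% of all genes tested. Ciita, the class II counterpart of Nlrc5, had the lowest value at -0.49. It was counted 2780, 8937 and 4227 times in Sham and 4042, 3487 and 4671 times in OVX. Sham replicate 2, the library with the highest mature B cell markers, was far above the others for Ciita but not for Nlrc5. The part of B cell stage in these values was not tested.

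Interferon-stimulated genes, which class I genes often accompany, had the lowest median of the pathway lists, though not of the cell type marker lists. Of 21 tested, 1 was higher and 20 lower in OVX, the median was -0.52 (log2), and none passed an unadjusted p-value of 0.05. They summed to 0.0299%, 0.0396% and 0.0665% of counts in Sham and 0.0361%, 0.0295% and 0.0365% in OVX, so Sham replicate 3 was highest. The summed neutrophil markers were also highest there, at 0.937% against 0.110% to 0.405% in the other libraries, and their part in these values was not tested. Without that library 10 were higher and 11 lower, with a median of -0.03. Oas3, an antiviral synthetase, had the lowest value at -0.97, with 176, 393 and 1005 counts in Sham and 419, 192 and 254 in OVX. Socs1, an inhibitor of interferon signalling, had the highest at 0.31. Sham replicate 3 was not the highest library for H2-K1, H2-D1, H2-Q4, H2-Q6, H2-Q7, B2m or Tap1, and was the highest for H2-Q10, Tapbp and Nlrc5.

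Leaving out Sham replicate 1, the library with the lowest mean member profile, gave the most members past an unadjusted threshold. H2-Q7 (-0.34), H2-Q10 (-2.14), Tap1 (-0.19) and Nlrc5 (-0.27) were then lower in OVX on the log2 scale at an unadjusted p-value under 0.05, and the lowest adjusted p-value of a member was 0.273 (edgeR). In that fit 9% of all genes tested were lower and 7.81% higher at the same level. For 5 members (H2-Q7, H2-Q10, Tap1, Tapbp and Nlrc5) all OVX libraries were then below the remaining Sham libraries, and for 0 members above them. In either direction, 36.4% of all genes tested separated the groups. Over all genes tested, Sham replicate 1 was nearer to each OVX library than to either other Sham library. The measure was chi-square per degree of freedom, which rises as the counts of 2 libraries differ more once totals are matched. It was 11.9, 9.29 and 13.0 for Sham replicate 1 with OVX replicates 1 to 3. With Sham replicates 2 and 3 it was 58.3 and 34.5. The cause was not tested.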

How the data were processed

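RNA sequencing of marrow B cells was used (3 Sham and 3 OVX libraries). The HIF-1α ChIP-seq samples were left out. The table that the authors deposited holds unnormalized read counts by Ensembl gene. The submitters' processing notes list CASAVA and Bowtie 0.12.2 and the mm10 build, without a role for each. The counting tool, annotation and strand setting were not given in the sources used here. The total of each library limits the precision, and reads carry no molecular identifiers.

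Symbols were matched to 54409 of 54532 identifiers. Gene positions and promoters are from RefSeq tables of GRCm38.p6. The fit used edgeR 4.0.16 (R 4.3.3): filterByExpr by group left 15305 genes, TMM factors scaled the libraries, and glmQLFit with glmQLFTest compared OVX with Sham without covariates, with Benjamini-Hochberg adjustment over all genes tested. Profiles used log2 CPM without a pseudocount, and the check of replicate numbers a prior count of 2. Members, lists and the rules for named genes were chosen with earlier results of these data known. From each pathway list, the genes named have the highest and lowest log2 fold change, an unadjusted p-value under 0.05, or groups that do not overlap. Rfx5 was named in addition, beside the other subunits of its complex. Likeness used the 10 highest r. Alternatives were DESeq2 1.42.0, limma-voom (limma 3.58.1), library size or upper-quartile scaling, other filters, no fold threshold, a replicate block and each library left out. Intervals are at 95%.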

Additional observations from a re-analysis of the deposited data

How the results depend on the processing

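No member and no gene was called under any alternative that was run, and the lowest adjusted p-value of a member was 0.273, without Sham replicate 1. At an unadjusted p-value under 0.05 there was 1 member, 0 with limma-voom, 0 with the replicate block, and 0 to 4 when 1 library was left out. The 4 were found without Sham replicate 1, where 9% of all genes tested were lower and 7.81% higher at that level. Members whose groups did not overlap numbered 0, and 0 to 5 with 1 library left out. The 5 were also found without Sham replicate 1, where 36.4% of all genes tested did not overlap. With another library left out, this share was 13.7% to 24%. Ratios to H2-K1 that separated the groups numbered 0, and 0 to 3 with 1 library left out. The median log2 fold change of the members ran from -0.12 to 0.0091 with 1 library left out.

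Of 140 single member fold changes over 14 alternatives, 125 kept their direction and 15 reversed it, all of them between -0.13 and 0.028 on the log2 scale. H2-Q6 became -0.0020 with limma-voom, -0.022 with library size only, -0.013 with upper-quartile scaling, -0.0019 without the filter and -0.0027 with the replicate block. With 1 library left out, H2-Q6 ran from -0.13 to 0.084, H2-K1 from -0.036 to 0.097, H2-D1 from -0.12 to 0.022, Tapbp from -0.13 to 0.026 and Nlrc5 from -0.27 to 0.028. The cause was not tested. Same-numbered libraries did not deviate together (r of -0.410, -0.189 and -0.279), and 0 of 6 libraries correlated best with its own number, so the numbers were not taken as pairs. The 3 libraries per group limit the precision, as the width of the intervals shows.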
